A study of Mus musculus with 6 samples.

Results

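The Dlk1-Dio3 domain of mouse chromosome 12 is a cluster of imprinted genes, and the 7 genes described here are its members Dlk1, Meg3, Rtl1, Rian, Mirg and Dio3 together with the neighbouring gene Begain. They were found by their symbols among the 55401 genes of the count table. The symbols were chosen from the measured difference between genotypes in these same libraries, with the low knockout values of Meg3, Rian, Mirg and Rtl1 known. Their WT and knockout levels are therefore given as a description, with no test. RNA was sequenced from V6.5 cells, a mouse embryonic stem cell line derived from hybrid embryos, either wild type (WT) or Cdh1-/-, in which the gene of the adhesion protein E-cadherin was disrupted (Cdh1 knockout). Each genotype had 3 libraries of total RNA, lettered A, B and C. No treatment or time point separated the groups, and the labels do not say whether the letters mark separate cultures, so the spread between libraries may be technical. The number of clones behind the knockout libraries and the method of disruption are not given in the sources used here.

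Imprinted genes are transcribed mainly from the chromosome inherited from a single parent. In this domain the maternal chromosome gives rise to the long noncoding RNAs Meg3, Rian and Mirg, which run in the same direction and carry many small nucleolar RNAs and microRNAs, while the paternal chromosome transcribes the protein genes Dlk1, Rtl1 and Dio3. The choice is set by methylation of a control region between Dlk1 and Meg3, which is methylated on the paternal chromosome, and methylation of both copies silences the noncoding RNAs. In mouse embryonic stem cells and induced pluripotent cells the domain is known for losing the expression of Meg3 and its neighbours during derivation or culture in some lines. Counts summed over a gene do not tell the parental copies apart, and methylation was not measured here.

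The start of Meg3, the Dlk1 start on the other side of the control region and the Dio3 start at the far end are shown first, because the levels of these genes diverge below. Each window is 300 bases of RefSeq sequence in build GRCm38.p6, from 250 bases before to 50 bases after the annotated start, printed 5′ to 3′ on the plus strand, with capitals for the searched motifs.
Meg3, chr12:109540746-109541045: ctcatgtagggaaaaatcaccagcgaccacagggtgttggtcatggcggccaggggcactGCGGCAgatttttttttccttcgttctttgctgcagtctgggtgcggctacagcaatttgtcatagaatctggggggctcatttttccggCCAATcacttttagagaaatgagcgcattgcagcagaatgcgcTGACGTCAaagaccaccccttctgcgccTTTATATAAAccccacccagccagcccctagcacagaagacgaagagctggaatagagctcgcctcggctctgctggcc
Dlk1, chr12:109452573-109452872: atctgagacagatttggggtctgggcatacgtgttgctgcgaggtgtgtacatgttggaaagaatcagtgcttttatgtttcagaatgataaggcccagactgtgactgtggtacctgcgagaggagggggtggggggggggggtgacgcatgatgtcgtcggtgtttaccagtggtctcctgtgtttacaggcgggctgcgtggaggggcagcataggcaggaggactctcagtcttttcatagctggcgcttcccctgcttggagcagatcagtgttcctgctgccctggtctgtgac
Dio3, chr12:110278980-110279279: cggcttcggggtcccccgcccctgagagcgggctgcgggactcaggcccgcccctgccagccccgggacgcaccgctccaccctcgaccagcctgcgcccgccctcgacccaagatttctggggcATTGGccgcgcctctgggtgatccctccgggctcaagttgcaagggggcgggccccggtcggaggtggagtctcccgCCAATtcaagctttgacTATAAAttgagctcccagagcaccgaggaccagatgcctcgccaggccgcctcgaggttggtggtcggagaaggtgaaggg

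The motifs searched on both strands were TGACGTCA (the cAMP response element), TATATAA and TATAAA (forms of the TATA box), CCAAT, and TGCCGC, the hexamer bound by the imprint protein ZFP57 when its CpG is methylated. The printed Meg3 window held all 5. TGACGTCA lay at -57 relative to the start and is found in 1.79% of the 32851 windows of all genes. The overlapping TATATAA and TATAAA forms lay nearer to the start, and they are found in 3.24% and 13.6% of windows. TGCCGC lay on the reverse strand at -190 relative to the start (11.6% of windows), and CCAAT at -100 (37.4% of windows). The Dlk1 window held none of the 5 motifs, and the Dio3 window held TATAAA at -31 and CCAAT at 2 places. The RefSeq start of Dio3 lies 162 bases inside the GENCODE gene. CpG pairs numbered 13 in the printed Meg3 window, 9 in that of Dlk1 and 25 in that of Dio3, against a median of 7 over all windows. A match describes letters and shows no binding. Windows were found for 6 of the 7 members, with Rtl1 unmatched. The windows of Rian, with 0 CpG pairs, Mirg with 10, the 5 windows of Begain with 34 to 46, and a second Meg3 window (chr12:109545148-109545447) with 1 CpG pair and none of the 5 motifs are not printed.

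The microRNAs that lie opposite Rtl1 are shown because their rows and the Rtl1 row cover the same bases on different strands. Rtl1 encodes a protein derived from a retrotransposon, and microRNAs made from the maternal strand opposite to it are known to cut its paternal transcript. RefSeq places 58 microRNA hairpins with 114 mature forms between Begain and Dio3. Of the mature forms, 11 from 6 hairpins match the annotated Rtl1 transcript as a full reverse complement. They are printed 5′ to 3′ with the seed (bases 2 to 8) in capitals.
mmu-miR-431-5p: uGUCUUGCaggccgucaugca
mmu-miR-431-3p: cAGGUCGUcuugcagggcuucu
mmu-miR-433-5p: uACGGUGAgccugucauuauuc
mmu-miR-433-3p: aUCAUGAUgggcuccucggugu
mmu-miR-127-5p: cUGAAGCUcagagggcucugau
mmu-miR-127-3p: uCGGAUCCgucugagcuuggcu
mmu-miR-434-5p: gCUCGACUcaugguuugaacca
mmu-miR-434-3p: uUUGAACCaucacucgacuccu
mmu-miR-432: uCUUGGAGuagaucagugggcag
mmu-miR-136-5p: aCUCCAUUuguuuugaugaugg
mmu-miR-136-3p: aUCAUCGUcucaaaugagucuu

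The site in the Rtl1 transcript that pairs with mmu-miR-127-3p over its whole length reads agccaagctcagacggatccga. None of these 11 shares its seed with another mature microRNA of the domain. Over the domain there were 104 different seeds, and 9 seeds were each shared by different mature forms, 18 forms in all. The next 8 show 4 such pairs, which lie in the cluster between Rian and the end of Mirg and differ outside the seed.
mmu-miR-379-3p: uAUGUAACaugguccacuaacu
mmu-miR-411-3p: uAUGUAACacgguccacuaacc
mmu-miR-376b-5p: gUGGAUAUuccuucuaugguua
mmu-miR-376c-5p: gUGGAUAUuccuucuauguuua
mmu-miR-379-5p: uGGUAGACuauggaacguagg
mmu-miR-1193-5p: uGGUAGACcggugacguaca
mmu-miR-494-5p: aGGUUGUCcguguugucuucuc
mmu-miR-410-5p: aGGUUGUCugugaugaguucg

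The libraries held 18020719 to 23381942 counts. The targeted gene Cdh1 (chromosome 8) stood at 537 to 571 CPM, the read count scaled to library size, in WT and at 166 to 183 CPM in the knockout (adjusted p 2.9e-08 in edgeR's quasi-likelihood test; log2 fold change, written log2FC, -1.70 with an SE of 0.08). Small counts were mostly even, as happens if each mate of a pair is counted. A floor of 6 counts (3 pairs), or 0.262 to 0.332 CPM, was therefore set, and levels below it are not told apart from 0. All 10 embryonic stem cell markers were above the floor. The library kit is directional, yet 104 genes of at least 500 exon bases lay wholly under exons of the opposite strand, and none had a single count. The counts thus behaved as if strand had been ignored, and a row can hold reads from both strands.

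Meg3 and Rian were among the RNAs with many counts in WT cells and were nearly absent from every knockout library. Meg3 (ENSMUSG00000021268.17, GRCm38 chromosome 12, plus strand, 109541005 to 109571726) is a long noncoding RNA studied as a growth suppressor and a partner of Polycomb proteins. It had 4902, 3585 and 3192 counts in replicates A, B and C of WT, against 8, 2 and 4 counts in the knockout. These are 221, 181 and 160 CPM against 0.442, 0.0874 and 0.202 CPM. The groups did not overlap, and only knockout replicate A exceeded the floor. The means were 187 ± 30.9 CPM and 0.244 ± 0.181 CPM (SD, n = 3 each). The counts summed over the libraries of each genotype and scaled to library size had a WT to knockout ratio of 818, with a 95% interval of 397 to 2040 that covers the counting of read pairs only. The fitted log2 fold change was -9.63 (SE 0.24), and it was -10.32 without knockout replicate A. In bulk RNA, fewer cells with the transcript and less of it per cell cannot be told apart.

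Rian (ENSMUSG00000097451.11, plus strand, 109603808 to 109661716) is the host of a cluster of box C/D small nucleolar RNAs and begins 62.8 kb after the start of Meg3. It had 4478, 4105 and 3465 counts in WT and 24, 4 and 12 counts in the knockout. In CPM the WT replicates stood at 202, 207 and 173 and the knockout replicates at 1.33, 0.175 and 0.605. The groups did not overlap, and knockout replicates A and C were above the floor. The means were 194 ± 18.2 CPM and 0.702 ± 0.582 CPM. The ratio of the summed counts was 295 (counting interval 191 to 484), and the fitted log2 fold change was -8.18 (SE 0.26).

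Mirg (ENSMUSG00000097391.8, plus strand, 109729764 to 109749460), whose row spans only the later part of the distal microRNA cluster, begins 188.8 kb after the start of Meg3. It had 153, 143 and 118 counts in WT, or 6.89, 7.22 and 5.90 CPM. The knockout replicates had 0, 2 and 4 counts, all under the floor. The WT libraries were close to each other, and none overlapped the knockout. The means were 6.67 ± 0.687 CPM and 0.0964 ± 0.101 CPM. The ratio of the summed counts was 67.7, with a counting interval of 22.8 to 331 because only 3 read pairs were seen in the knockout. The fitted log2 fold change was -6.0 (SE 0.48).

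Together Meg3, Rian and Mirg took 0.0441%, 0.0399% and 0.0337% of the counts in replicates A, B and C of WT. In the knockout they took 0.000178%, 3.42e-05% and 9.86e-05%. By count Meg3 ranked between 807 and 1320 among all genes of a WT library, and Rian between 878 and 1160. These ranks are not scaled to exon length, which is 15.7 kb for Meg3 and 21.9 kb for Rian. The proportions of the 3 noncoding RNAs were alike in the WT libraries. Per kb of exon, the level of Rian was 0.655, 0.821 and 0.779 of that of Meg3, and Mirg stood at 0.0791, 0.101 and 0.0937 of Meg3.

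**Figure D1:**
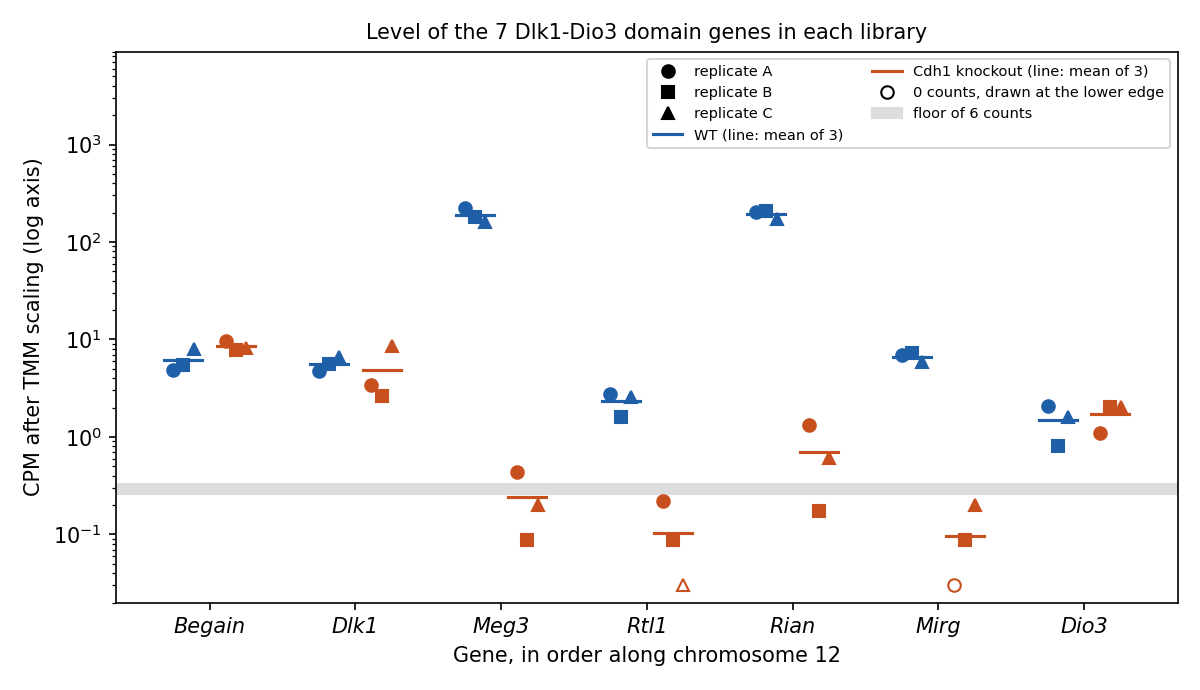
CPM after scaling, on a log axis, of the 7 genes in order along chromosome 12, with each library as a point (WT blue, knockout orange, the letter as the shape), the mean of 3 as a line, the floor of 6 counts as a grey band and 0 counts as open points at the lower edge. Meg3 and Rian lie at 160 to 221 CPM in WT and at 0.0874 to 1.33 CPM in the knockout, while the points of Begain, Dlk1 and Dio3 overlap between genotypes.

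Rtl1 (ENSMUSG00000085925.3, minus strand, 109589193 to 109600330) lies between Meg3 and Rian and is needed for the placenta and for muscle. Its row had 62, 32 and 52 counts in WT (2.79, 1.62 and 2.60 CPM) and 4, 2 and 0 counts in the knockout. All knockout values were under the floor and did not overlap WT. The means were 2.34 ± 0.630 CPM and 0.103 ± 0.111 CPM. The ratio of the summed counts was 23.9 (counting interval 7.85 to 118, from 3 knockout read pairs), and the fitted log2 fold change was -4.47 (SE 0.65). Because strand was not kept, the paternal Rtl1 transcript and RNA of the maternal strand opposite to it cannot be told apart in this row. Annotated exons of the opposite strand cover 8.12% of the exon bases of Rtl1. The rows of Mir431, Mir433, Mir127, Mir434, Mir432 and Mir136, which lie wholly within Rtl1 exons, were at 0 in all 6 libraries. So were the 104 longer genes, of at least 500 exon bases, checked above for lying wholly under opposite-strand exons.

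The paternally expressed protein genes at the ends of the domain did not share the low knockout level. Dlk1 (ENSMUSG00000040856.17, plus strand, 109452849 to 109463336) encodes a membrane protein of the Notch ligand family that restrains the differentiation of fat and other cells. Its start lies at -88.2 kb relative to that of Meg3. It had 4.73, 5.66 and 6.60 CPM in WT and 3.43, 2.62 and 8.58 CPM in the knockout. Knockout replicates A and B were below all WT libraries and replicate C above them. The means were 5.66 ± 0.938 CPM and 4.88 ± 3.23 CPM, and the fitted log2 fold change was -0.22 (SE 0.36), with a 95% interval of -0.91 to 0.48. Without knockout replicate C the log2 fold change was -0.90 (SE 0.28). The 12 endoderm markers, 11 of them above the floor and Afp at or under it, summed to 365 to 484 CPM in WT and to 790, 1030 and 1510 CPM in knockout replicates A, B and C. Their part in the level of Dlk1 was not tested.

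Dio3 (ENSMUSG00000075707.5, plus strand, 110279068 to 110281097) encodes the deiodinase that inactivates thyroid hormone and starts 738.1 kb after Meg3. It was low in both genotypes, at 2.07, 0.808 and 1.60 CPM in WT and 1.11, 2.01 and 2.02 CPM in the knockout. The groups overlapped, with a WT library both lowest and highest. The means were 1.49 ± 0.638 CPM and 1.71 ± 0.524 CPM, and the fitted log2 fold change was 0.20 (SE 0.42). Its interval was -0.62 to 1.02, so falls and rises within that interval remain compatible with these libraries.

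Begain (ENSMUSG00000040867.13, minus strand, 109032187 to 109068217) encodes a protein that binds guanylate kinase domains of synaptic scaffolds and is the member farthest upstream, at -508.8 kb from the start of Meg3. It had 4.91, 5.46 and 8.05 CPM in WT and 9.73, 7.73 and 8.12 CPM in the knockout. WT replicate C reached into the knockout range. The means were 6.14 ± 1.68 CPM and 8.53 ± 1.06 CPM, and the fitted log2 fold change was 0.47 (SE 0.22, interval 0.04 to 0.90). Without WT replicate C the log2 fold change was 0.73.

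All 7 members passed the filter on low counts, Meg3, Rian, Mirg and Rtl1 only through their WT libraries. An adjusted p under 0.05 was reached by 13.3% of the 17325 tested genes, 5.71% in the lower and 7.6% in the higher direction. Of the members, Meg3, Rian, Mirg and Rtl1 (4 of 7) reached it, all lower in the knockout. The knockout libraries of the same 4 did not overlap WT, as for 30.7% of the tested genes. The median log2 fold change of the members was -4.47, and that over all tested genes was -0.007. Nothing is read from these counts or from that median, since this contrast chose the members.

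Levels between genes can be compared per kb of exon. In WT the order of mean CPM per kb was Meg3 (11.9 ± 1.97), Rian (8.88 ± 0.833), Begain (1.71 ± 0.469), Dlk1 (1.18 ± 0.196), Mirg (1.08 ± 0.111), Dio3 (0.736 ± 0.314) and Rtl1 (0.367 ± 0.0991). Meg3 was above Rian in each of the 3 WT libraries, and both were above every library of the other members. From Begain down to Rtl1 each gene overlapped the next in its range over libraries. In the knockout the order was Begain (2.38 ± 0.295), Dlk1 (1.02 ± 0.675) and Dio3 (0.843 ± 0.258), followed by Rian (0.0321 ± 0.0266), Rtl1 (0.0162), Mirg (0.0156 ± 0.0164) and Meg3 (0.0155 ± 0.0115). Meg3 thus moved from the highest to the lowest mean of the 7, although the last 4 were not told apart from each other at these counts. In WT the libraries of Rian and Mirg varied least, with coefficients of variation of 9.39% and 10.3%, and those of Dio3 most, at 42.7%.

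Few counts of Meg3 and Rian were left in the knockout. Knockout replicate A held 0.236% of the mean WT level of Meg3 and 0.683% of that of Rian. Replicate B held 0.0467% and 0.0900%, and replicate C held 0.108% and 0.312%. Only replicate A for Meg3, and replicates A and C for Rian, exceeded the floor, so the other values are not told apart from 0 or ordered. Mirg had 0 counts in replicate A. Fibroblasts, which can accompany stem cells as feeders, express the domain. Of 16 fibroblast markers 14 exceeded the floor in a library, Lum and Twist2 did not, and none was at 0 in every library. Their sum was 1800 to 1950 CPM in WT and 1090 to 1250 CPM in the knockout, most of it from Fn1, which fell. Col1a1 also fell, while Fbn1 and Pdgfra rose. Among the knockout libraries 11 of the 16 markers were highest in replicate A, 1 in B and 4 in C, several of them near the floor. The collagen gene Col3a1 stood at 2.32, 0.0874 and 0.101 CPM in knockout replicates A, B and C, and Pdgfra at 15.9, 15.9 and 24.9 CPM. The part of such cells in the remaining counts was not tested.

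The other counted rows of the domain were scarce. From the start of Begain to the end of Dio3, a span of 1.25 Mb, there were 113 rows beside the members, of which 77 had 0 counts in every library, 7 exceeded the floor in a library and 1 (the pseudogene Gm3379) could be tested. Between the start of Meg3 and the end of Mirg, 27 other rows had counts in WT, and 26 of these had 0 in all knockout libraries. The exception was the noncoding RNA B830012L14Rik, with 10 to 28 counts in WT and 4, 0 and 0 in the knockout (ratio 13.7, counting interval 3.46 to 119). Among the 27 rows, only B830012L14Rik, Gm37899 and the small nucleolar RNA rows Gm24564 and AF357425 exceeded the floor in a library. The others are not told apart from 0 in WT either, and no share for equally low rows elsewhere was taken. The unclassified row Gm37899 had 6 to 20 counts in WT and 0 in the knockout. Its WT mean was 2.26 times the mean knockout floor of 6 counts per library, and WT replicate B, at 6 counts, did not exceed the floor. Gm34081, a noncoding RNA that lies between Dlk1 and Meg3 on the minus strand, had 7, 23 and 0 counts in WT. It had 0 in the knockout, so WT replicate C equalled the knockout libraries. Beyond the end of Mirg levels overlapped. Gm3379 had 4 to 16 counts in WT and 8 to 16 in the knockout, and Dio3os, transcribed away from Dio3, had 5 to 14 and 6 to 10.

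Small RNAs excised from the noncoding RNAs are too short for most reads of such libraries, so their rows are no measure of mature microRNAs. Between Meg3 and Mirg the table has 66 microRNA rows and 23 small nucleolar RNA rows, of which 31 lie wholly under other exons and were bound to be at 0. In WT, 18 microRNA rows and 6 small nucleolar RNA rows had a count, and in the knockout none did. The summed counts were 61, 69 and 18 in replicates A, B and C of WT, and 0 in each knockout library. The most counted were the small nucleolar RNA rows Gm24564, with 19, 23 and 2 counts in WT, and AF357425, with 14, 14 and 3. Their WT means were 2.36 and 1.66 times the mean floor of the knockout libraries. WT replicate C was under the floor in both rows and is not told apart from the knockout there. No other of these small RNA rows exceeded the floor in a library. WT replicate C had the fewest counts in these rows, as it had for Meg3, Rian and Mirg.

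**Figure D2:**
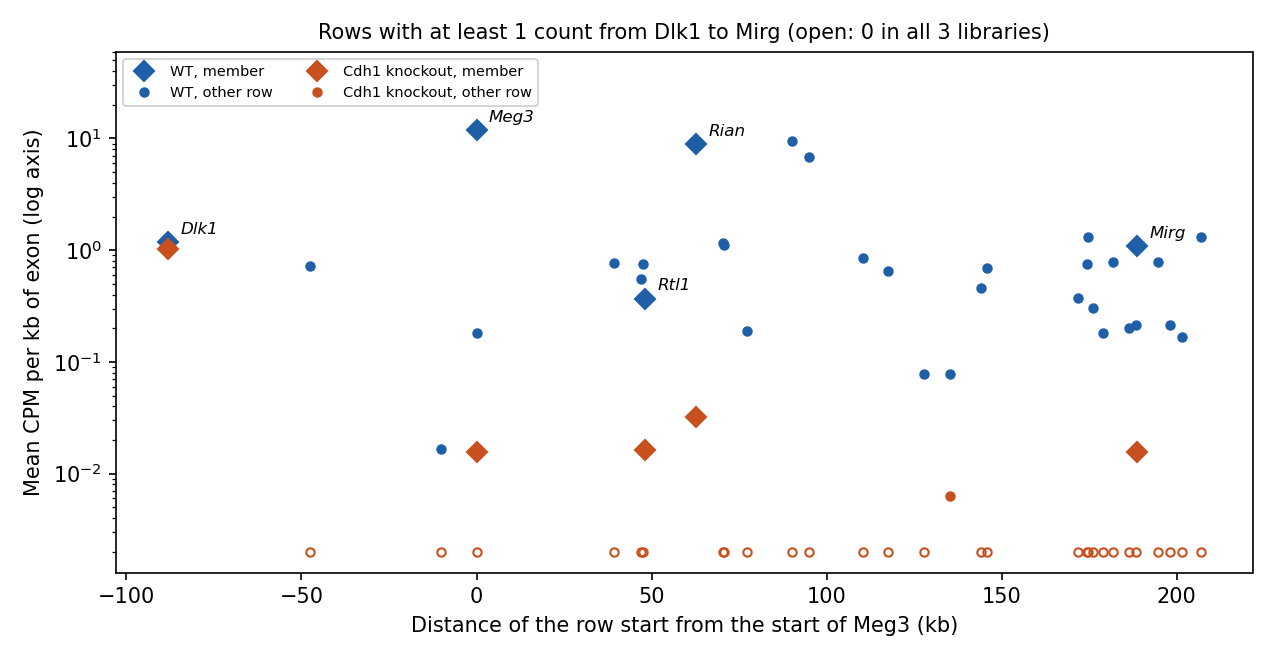
Mean CPM per kb of exon, on a log axis, against the distance of each row's start from the start of Meg3 in kb, for members (diamonds) and other rows with a count (circles), WT in blue and knockout in orange, open circles at the lower edge marking 0 in all 3 libraries. From the start of Meg3 to the end of Mirg the orange diamonds lie at 0.0155 to 0.0321 CPM per kb and 26 of the 27 other rows with WT counts sit at 0, while both diamonds of Dlk1 lie near 1 CPM per kb. Most of those 27 rows were at or under the floor in every WT library too.

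The genes around the domain were examined by position alone, within 1 Mb outside Begain and Dio3, in the fit over all genes. Of 61 such genes 34 could be tested, and 1 passed an adjusted p of 0.05, against 13.3% of all tested genes. The count at an unadjusted p under 0.05 was 6 of 34, against 4622 of 17325 over all tested genes. DESeq2 called 2 flanking genes, and 2410 over all genes. The median log2 fold change was -0.01, with a range of -1.60 to 1.27. The gene that passed was Amn, which encodes a subunit of the intestinal vitamin B12 receptor and lies 990 kb beyond Dio3. It rose from 4.09 ± 1.38 CPM (2.61, 5.36 and 4.30) to 9.82 ± 2.48 CPM (8.62, 8.17 and 12.7), with a log2 fold change of 1.27 (SE 0.27) and an adjusted p of 0.00504, between 7.23e-07 and 0.0353 over the alternatives. The closest gene to Begain, Wdr25, 3.73 kb away, had 13.2 ± 0.911 CPM (WT) and 12.6 ± 1.01 CPM (knockout) (adjusted p 0.834, log2FC -0.06). On the far side Gm6988, 34.9 kb from Dio3, had an adjusted p of 0.858 at a log2FC of -0.12. Yy1, the gene of a zinc finger protein with roles in imprinting, had 151 ± 15 CPM and 156 ± 20.2 CPM (adjusted p 0.822), and Hsp90aa1, of the stress-inducible chaperone, had an adjusted p of 0.113 at a log2FC of 0.21. Wdr25, Gm6988, Yy1 and Hsp90aa1 were named after their values were seen. Over chromosome 12 as a whole the median log2 fold change was -0.00 in 675 tested genes, of which 54 passed. The 13.3% over all tested genes includes chromosomes with shifted medians. On chromosome 14 the median was 0.53 and 320 of 622 tested genes passed. On chromosome 1 it was -0.33 and 297 of 1002 passed. These chromosomes raise the share over all genes that is set beside the flanks and the lists below.

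**Figure D3:**
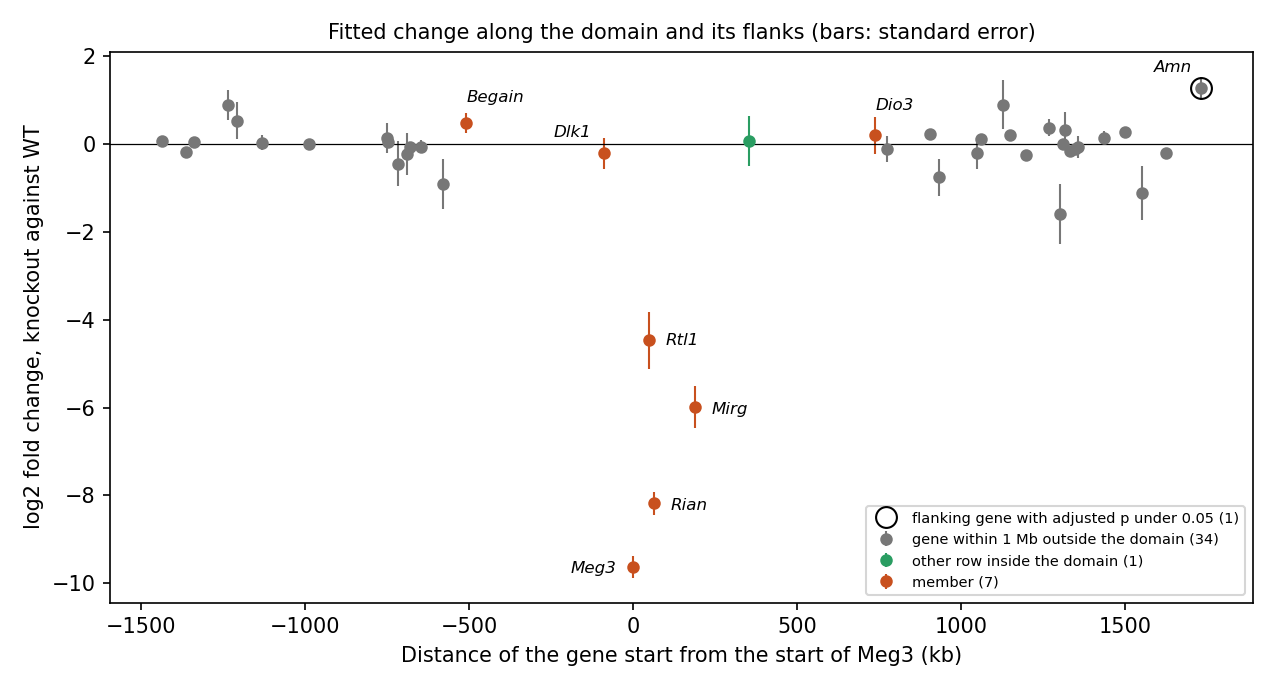
Fitted log2 fold change (knockout against WT, bars are the standard error) against the distance of the gene's start from that of Meg3 in kb, for the 7 members, 1 other tested row of the domain and 34 flanking genes. Meg3, Rtl1, Rian and Mirg lie between -9.63 and -4.47, and all flanking genes lie between -1.60 and 1.27.

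Genes that act on imprints or with the products of the domain were counted by list in the same fit. The lists were drawn up from textbook roles with results of these data known. Of 20 regulators of imprinted methylation and chromatin, all tested, 2 rose and 6 fell, and 11 had an unadjusted p under 0.05. Over all 17325 tested genes 13.3% passed, and 4622 had an unadjusted p under 0.05. The median log2 fold change was -0.02. Zfp57, whose zinc finger protein keeps the methylation of imprinted control regions, rose from 234 ± 18.3 to 653 ± 204 CPM (adjusted p 5.46e-05, log2FC 1.48, SE 0.17). Its knockout values were 425, 715 and 818 CPM in replicates A, B and C, all above WT. Tet2, of an enzyme that oxidizes methylcytosine, rose from 265 ± 14.4 to 394 ± 109 CPM (adjusted p 0.0216). Knockout replicate A, at 271 CPM, lay within the WT range of 249 to 278 CPM. The Tet2 call was lost in 6 of 11 alternatives, and the adjusted p was 0.123 when knockout replicate B was left out.

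The regulators that fell include the methyltransferase group that sets imprints in germ cells. Dnmt3a, on chromosome 12 itself, fell from 213 ± 10.6 to 143 ± 19.3 CPM (adjusted p 0.00147), and Dnmt3b from 95.4 ± 4.6 to 71.9 ± 0.839 CPM (adjusted p 0.00511). Their cofactor Dnmt3l fell from 123 ± 21.3 to 83.2 ± 20.1 CPM (adjusted p 0.0232), but leaving out WT replicate C gave 0.128. For Dnmt3l knockout replicate C (106 CPM) was above WT replicate B (99.2 CPM). Dppa3, which shields the maternal genome from demethylation after fertilization, fell from 8.99 ± 1.76 to 3.36 ± 1.08 CPM (adjusted p 0.00178, log2FC -1.43). Aff3, of a protein that binds the control region of the domain, fell from 18.4 ± 1.44 to 9.03 ± 1.82 CPM (adjusted p 0.000782, log2FC -1.03). It lies on chromosome 1, whose 1002 tested genes had a median of -0.33. Jarid2, a Polycomb cofactor, fell too (log2FC -0.50, adjusted p 0.00817, but 0.0515 when WT replicate C was left out). The maintenance methyltransferase Dnmt1 had 435 CPM and 419 CPM (adjusted p 0.706), and the ZFP57 partner Trim28 had 1020 CPM and 940 CPM (adjusted p 0.575). Tet1 had an adjusted p of 0.0894 at a log2FC of 0.38. Tet2, Jarid2, Dnmt3b, Dnmt1, Trim28 and Tet1 were named after their values were seen.

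The relatives of Dlk1 in Notch signalling gave 1 rise and 1 fall among 13 tested of 15 genes, near the 13.3% called over all tested genes, with a median log2 fold change of 0.00. The ligand gene Jag1 fell from 15.2 to 9.98 CPM (adjusted p 0.0217, log2FC -0.60), and the target gene Hes1 rose from 41.8 to 62.5 CPM (adjusted p 0.0121, log2FC 0.58). Each call was lost in 4 of 11 alternatives, with adjusted p values up to 0.123 without WT replicate B for Jag1 and up to 0.0806 for Hes1. Dlk2, the closest relative of Dlk1, was near the floor, with 0.319 CPM in WT against 0.956 CPM in knockout cells (adjusted p 0.214).

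Of 12 genes of thyroid hormone action, the pathway of Dio3, 9 were tested, 1 rose and 2 fell, against 13.3% called over all tested genes. The retinoid receptor gene Rxrg, on chromosome 1, fell from 1.58 ± 0.752 to 0.205 ± 0.129 CPM (adjusted p 0.00392, log2FC -2.88), with the knockout mean under the floor. The corepressor gene Ncor1 rose from 302 to 391 CPM (adjusted p 0.0217), a call lost in 5 of 11 alternatives, and leaving out WT replicate A gave 0.109. The other deiodinase genes, Dio1 and Dio2, had too few counts to be tested.

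Rtl1 has relatives that also derive from retrotransposons. Of 11 such genes 6 were tested and 1 rose (13.3% of all tested genes were called), the imprinted gene Peg10 of chromosome 6, from 148 ± 6.87 to 220 ± 54.2 CPM (adjusted p 0.00997, log2FC 0.58). Leaving out WT replicate A gave 0.0628. Of 12 genes that process or load microRNAs, all tested, 1 rose and 1 fell, again near the 13.3% called overall. Ago1 fell from 117 to 87.6 CPM (adjusted p 0.00776) and Ago2 rose from 407 to 505 CPM (adjusted p 0.0356), and the calls were lost in 2 and 4 of 11 alternatives, at adjusted p values up to 0.0576 and 0.129. The nucleases Dicer1 and Drosha, named after their values were seen, had log2 fold changes of -0.26 (adjusted p 0.0547) and -0.19 (adjusted p 0.163).

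Box C/D small nucleolar RNAs, the class hosted by Rian, are packed by proteins whose 8 listed genes were all tested, with 3 falls and 0 rises, and a median log2 fold change of -0.15. At an unadjusted p under 0.05 there were 4 of 8, against 4622 of 17325 over all tested genes, of which 13.3% were called. Nop58 fell from 550 ± 33.9 to 347 ± 33.4 CPM (adjusted p 0.000201, log2FC -0.67), and it lies on chromosome 1, where the median was -0.33. Nop56 fell from 376 to 293 CPM (adjusted p 0.0486) and Nolc1 from 274 to 223 CPM (adjusted p 0.0410). The calls of Nop56 and Nolc1 were lost in 5 and 7 of 11 alternatives, with adjusted p values of 0.169 without WT replicate C and 0.186 without WT replicate A.

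**Figure D4:**
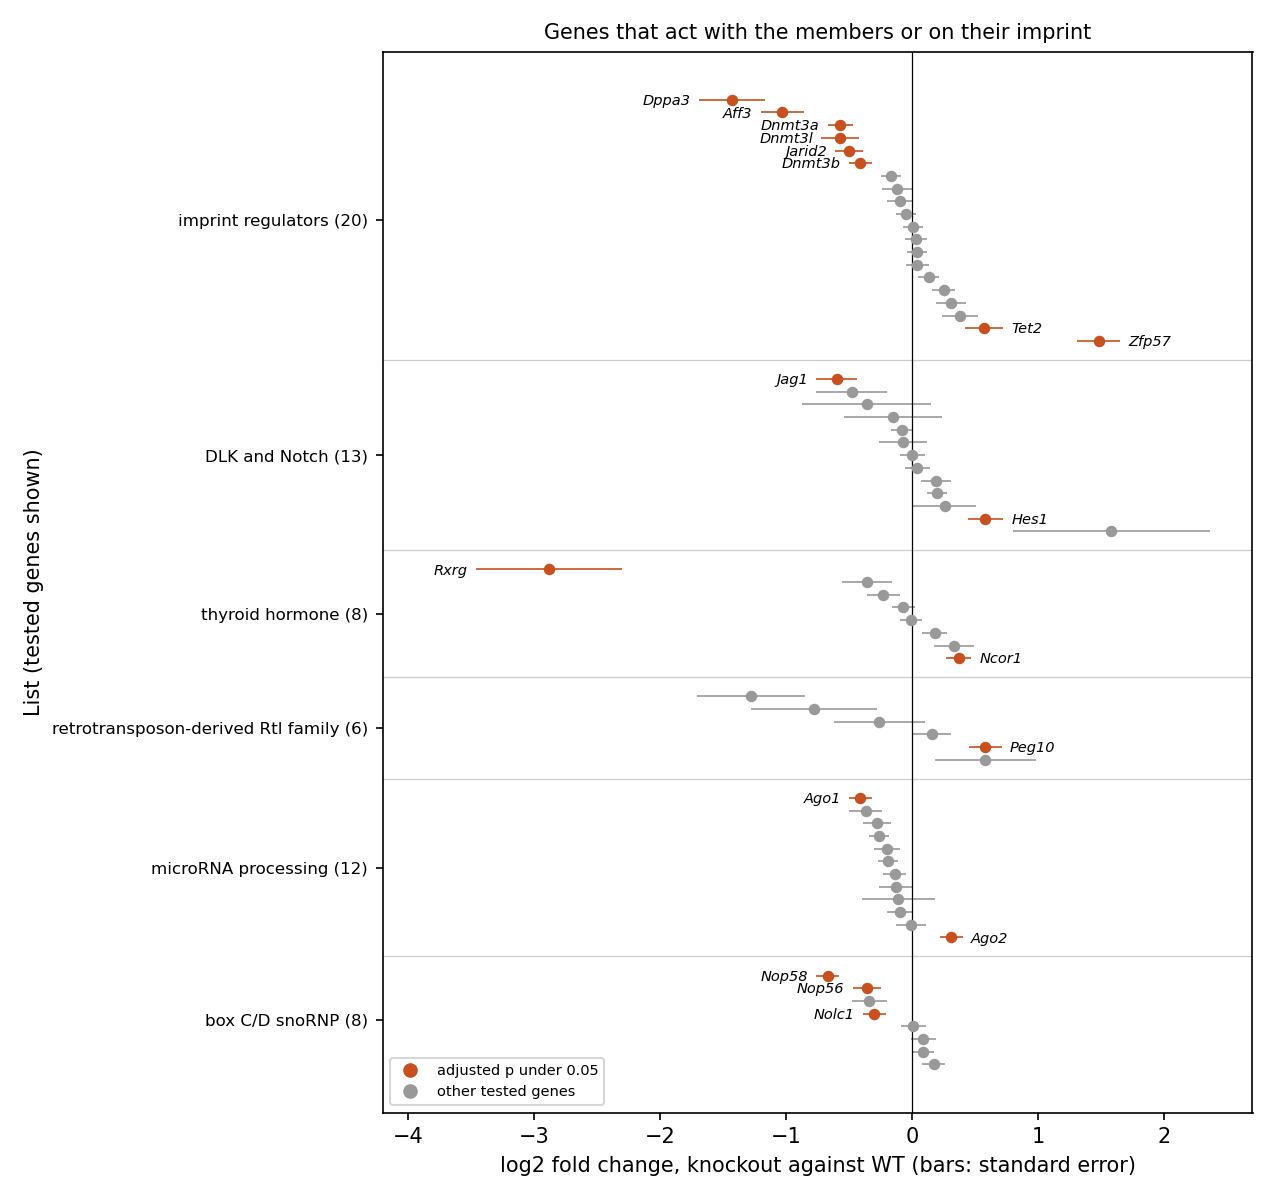
Fitted log2 fold change (knockout against WT, bars are the standard error) of tested genes of the 6 lists, with those at an adjusted p under 0.05 in orange and named. Zfp57 lies at 1.48 and Dppa3 at -1.43 among 20 imprint regulators, and no gene shown reaches the change of Rtl1, at -4.47, or of the noncoding RNAs.

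Over the 6 libraries the log2 CPM of Rian, Mirg and Rtl1 followed that of Meg3 with Pearson r of 0.997, 0.974 and 0.969, while Dlk1 had 0.354, Dio3 -0.285 and Begain -0.705. Each r is over the same 6 libraries, which fall into separate groups by genotype, and is a description. Outside chromosome 12 the genes most like Meg3 by this measure, among 12370 with a mean of at least 50 counts, included Rragd, Thnsl2, Kctd3 and Vgf, with r from 0.9992 down to 0.9974. Their log2 fold changes, from -2.67 (Vgf) to -0.38 (Kctd3), were far smaller than that of Meg3. Kctd3 lies on chromosome 1, whose tested genes had a median of -0.33.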

How the data were processed

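RNA of 3 WT and 3 Cdh1 knockout libraries was compared. The authors deposited whole-number counts per gene. Reads were trimmed with cutadapt 2.10, aligned with STAR 2.7.5b and counted with featureCounts 2.0.1 against GRCm38, per the submitters' processing notes, and the strand setting is not given in the sources used here. Genotypes and replicate letters came from the sample titles. The members and gene lists were chosen with earlier results of these data known. Counts were fitted in R 4.3.3 with edgeR 4.0.16 (TMM scaling, filterByExpr with a smallest count of 10 and total of 15, glmQLFit and glmQLFTest on genotype), which tested 17325 of 32417 genes with a count. All of them entered the Benjamini-Hochberg adjustment, and calls needed an adjusted p below 0.05. The common biological coefficient of variation was 0.137, and the procedure was tested on simulated data. Levels are mean ± SD of CPM, and ratios are of counts summed over libraries and scaled to library size, with exact intervals from counts divided by 2. These intervals, and the floor of 6 counts, cover counting error alone, as PCR copies are no separate molecules. The rule named the 7 members, Cdh1, rows of the domain with a library above the floor, called flanking genes, up to 5 called genes of each list by size, and the 5 genes most like Meg3. Results for 2 genes under this rule are not reported here. Alternatives were RLE size factors, no filter, DESeq2 1.42.0, the replicate letter as a block, counts divided by 2, and leaving out each library. Motifs and seeds were read from RefSeq tables.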

Additional observations from a re-analysis of the deposited data

How the results depend on the processing

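The log2 fold changes of Meg3, Rian, Mirg and Rtl1 kept their sign in all 11 alternatives. Leaving out 1 library at a time gave -10.32 to -9.17 for Meg3, -8.99 to -7.65 for Rian, -6.93 to -5.51 for Mirg, -5.48 to -3.92 for Rtl1, -0.90 to 0.10 for Dlk1, -0.10 to 0.51 for Dio3 and 0.33 to 0.73 for Begain. The same fits called 1374 (without WT replicate A) to 2784 genes (without knockout replicate A), against 2307 in all 6 libraries and 1470 without WT replicate B. They called 5 to 11 imprint regulators (8 in all libraries), 2 to 5 thyroid hormone genes (3), 0 to 2 DLK and Notch genes (2), 0 to 1 genes of the Rtl family (1), 0 to 3 microRNA processing genes (2) and 1 to 2 box C/D genes (3), so every omission lost a box C/D call. Without a filter on low counts and with DESeq2, 2 flanking genes were called. Counts divided by 2 gave 2 called genes of the Rtl family. With the letter as a replicate block, 2686 genes, 9 imprint regulators and 4 microRNA processing genes were called, and the log2 fold change of Meg3 was -9.62. Same-letter libraries of the genotypes deviated together with r of 0.149 (A), -0.025 (B) and 0.232 (C). For libraries of different letters r was -0.249 to 0.118, below the values of A and C. The labels state no pairing, so the main fit used genotype alone, and whether the letters pair samples is not settled here. Depth limits Rtl1 and Mirg most, with 3 knockout read pairs each, and their ratios carry the widest counting intervals among Meg3, Rian, Mirg and Rtl1.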
